A study of Mus musculus with 20 samples.

Results

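The mitochondrial ribosomal proteins are the protein part of the ribosome inside the mitochondrion. The genes followed here are those whose symbol in the array's annotation is Mrpl or Mrps followed only by a number. They came to 73 of the 19505 genes named on the array, 48 with the prefix Mrpl and 25 with the prefix Mrps. Every one of the 73 was read by a single probe set, so no choice between probe sets was needed, and all 73 symbols were current in RefSeq. Genes of the same ribosome that carry other names or a letter after the number, such as Dap3 and Mrps18a, fall outside the rule and are described apart.

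The samples were the whole epididymal fat pad, the visceral fat depot beside the epididymis, of 20 male C57BL/6 mice. All 20 mice, the controls included, carried a floxed Tnf gene on both chromosomes (TNF-αFlox/FLox), Tnf being the gene of the inflammatory cytokine TNF-α. The 10 mice labelled wt were LyzMcre-/- and had no Cre. The 10 labelled cre were LyzMcre+/-, so that Cre was driven by the LyzM promoter, which is active in macrophages, neutrophils and other myeloid cells, and Tnf in other cells was not a target of the deletion. Wt and cre mice were littermates. They were fed chow up to 10 weeks of age, followed by 18 weeks on a purified diet with 40% of its energy as fat, and were 28 weeks old at sampling. The labels place 5 wt and 5 cre mice in batch 1 and 5 of each in batch 2, and do not say what the batches were. There was no lean or chow-fed group, so the levels describe obese fat under both genotypes.

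The mitochondrial ribosome makes only the few proteins encoded by mitochondrial DNA, all of them core subunits of the respiratory chain and ATP synthase. Its RNAs come from mitochondrial DNA, while all of its proteins are encoded in the nucleus, made in the cytosol and imported. Some have bacterial counterparts, which lie mostly in the core of the particle, and the others are specific to mitochondria and lie mostly on its outside. In adipocytes mitochondrial translation supports the oxidative capacity that grows as the cell differentiates, and obese white fat is known for reduced expression of oxidative genes. In whole tissue every cell type contributes to these genes, and fewer cells of a type and less RNA per cell cannot be told apart.

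The members were sorted by place in the ribosome. The large subunit holds 49 of them, 30 with a bacterial homologue and 19 specific to mitochondria, and the latter include Mrps30, which sits in the large subunit despite its name. The small subunit holds 23, of which 14 have a bacterial homologue and 9 do not. Mrps36 is a component of the 2-oxoglutarate dehydrogenase complex and is not counted in either subunit. Mean signals of the members ran from 5.19 (Mrpl36) to 12.70 (Mrpl42) on the log2 scale of the array, and 6 of the 73 lay below 6.50, the median of all probe set means. Differences in signal between probe sets reflect the probes as well as the transcripts, so no member's level is set against another's.

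Promoter sequence is shown as a description of the members, and its relation to their levels across mice was not tested. RefSeq promoter windows of 250 bases before to 50 bases after the start (GRCm38.p6, mm10) were matched by Entrez gene identifier for 64 of the 73 members. Both strands were searched for 6 motifs of factors known to act on mitochondrial or housekeeping genes. The NRF1 motif, GCGCA and GCGC with any 1 base between them, stood in 13 of the 64 windows (20.3%), against 7.05% of the 15691 windows of genes on the array. The ETS/GABP motif CCGGAAGT stood in 10 (15.6%), against 5.47%. The YY1 motif AAGATGGC stood in 11 (17.2%), against 3.32%. For the remaining 3 the shares were close to those of the array's genes: GGGCGG (SP1) stood in 31 (48.4%, against 48.2%), TGACGTCA (CRE) in 2 (3.12%, against 2.42%) and CACGTG (E-box) in 4 (6.25%, against 8.18%). Letters of 1 motif may overlap those of another, and a match describes the sequence, not binding.

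The 150 bases before the start of 5 members are printed 5′ to 3′ on the strand of the gene, with every match to the 6 motifs in capitals. Mrpl12, a protein of the ribosomal stalk, and Mrpl32, a large-subunit protein that is matured by proteolysis, show the NRF1 motif, and Mrpl32 also an SP1 motif. Mrps22, a small-subunit protein among those highest in cre, shows an ETS/GABP and an SP1 motif. Mrpl16 and Mrps30, whose levels followed Adipoq across mice, show a CRE motif and none of the 6, respectively.
Mrpl12 (chr11:120484487-120484636, plus strand): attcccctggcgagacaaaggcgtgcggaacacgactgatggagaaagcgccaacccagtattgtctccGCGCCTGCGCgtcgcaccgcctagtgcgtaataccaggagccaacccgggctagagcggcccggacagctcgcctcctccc
Mrpl32 (chr13:14613038-14613187, minus strand): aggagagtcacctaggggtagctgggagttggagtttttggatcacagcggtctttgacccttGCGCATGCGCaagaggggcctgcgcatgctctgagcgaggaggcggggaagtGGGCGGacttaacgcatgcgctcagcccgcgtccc
Mrps22 (chr9:98601680-98601829, minus strand): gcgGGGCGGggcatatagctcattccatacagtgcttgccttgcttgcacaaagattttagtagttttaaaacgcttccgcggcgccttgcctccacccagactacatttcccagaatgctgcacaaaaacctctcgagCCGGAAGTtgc
Mrpl16 (chr19:11770265-11770414, plus strand): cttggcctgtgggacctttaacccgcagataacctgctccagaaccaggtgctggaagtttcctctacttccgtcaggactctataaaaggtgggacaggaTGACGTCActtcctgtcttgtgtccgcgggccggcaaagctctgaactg
Mrps30 (chr13:118387253-118387402, minus strand): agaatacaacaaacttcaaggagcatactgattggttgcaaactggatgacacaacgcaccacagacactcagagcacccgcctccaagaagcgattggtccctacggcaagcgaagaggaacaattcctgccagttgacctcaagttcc
Each stretch lies directly before the gene's start and overlaps no gene annotated in the RefSeq table of that build. The 73 genes are spread over 17 chromosomes, with 11 of them on chromosome 11.

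The deposited values are log2 signals normalised together by the authors, with array medians between 6.49 and 6.58 and a precision set by the number of mice. Tnf itself ran from 5.78 to 7.80 in wt and from 3.91 to 5.34 in cre, with no overlap, and fell by 1.99 (adjusted p = 0.000822, limma). Adipocyte genes were high in every pad, the mean of 12 such genes lying between 14.46 and 16.93. Wt replicates 5 and 6 stood apart by low Adipoq (17.57 and 17.38, against 18.63 to 19.57 in the other 18 mice). By genes of other tissues, 6 mice stood apart from the rest of their genotype: wt replicate 6 (seminal vesicle and prostate), wt replicate 4 (liver and pancreas), wt replicate 7 (skeletal muscle), cre replicate 2 (bladder and brown fat), cre replicate 3 (seminal vesicle) and cre replicate 9 (red blood cells). The correlations of the member mean with Adipoq and Adgre1 over all mice are given with and without wt replicates 5 and 6. Slopes of single genes and of the other lists are from all 20 mice unless stated.

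Taken over both batches, the mitochondrial ribosomal protein genes averaged nearly the same in fat pads with and without the myeloid Tnf deletion. The mean of the 73 members in a mouse was 9.03 ± 0.10 in wt (SD, n = 10; lowest 8.85, median 9.01, highest 9.22) and 9.04 ± 0.24 in cre (SD, n = 10; lowest 8.57, median 8.99, highest 9.44). The ranges overlapped fully, the cre mice lying on both sides of the wt mice, and cre exceeded wt by 0.01 (SE 0.08). Without the 6 mice that stood apart, the difference was 0.06 (SE 0.11). Of the 73 members 38 were higher and 35 lower in cre, with a median difference of 0.00, and over all 22206 probe sets 11263 were higher and 10943 lower, with a median of 0.00.

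No member passed an adjusted p of 0.05 for genotype in limma's fit over all probe sets, in which 0% of probe sets passed as higher and 0.0045% as lower, the latter being Tnf alone. At an unadjusted p under 0.05, 3 members were higher, Mrps31, Mrps22 and Mrps5, and 0 were lower. The corresponding shares of all probe sets were 3.24% and 3.05%, so 3 of 73 is near the background.

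Mrps31, a small-subunit protein with no bacterial homologue, had the smallest p of the 73 for genotype. Its level ran from 8.63 through a median of 8.96 to 9.58 in wt and from 8.84 through 9.45 to 9.86 in cre, a difference of 0.40 (SE 0.15; adjusted p = 0.770, limma). The 2 ranges overlapped, and 9 of 10 cre mice lay above the wt mean. It was also the 1 of these 3 with a similar difference in both batches, 0.43 in batch 1 and 0.37 in batch 2.

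Mrps22, another mitochondria-specific protein of the small subunit, ran from 8.16 (median 8.92) to 9.22 in wt and from 8.81 (median 9.26) to 9.67 in cre, a difference of 0.37 (SE 0.16; adjusted p = 0.772, limma). Mrps5, whose bacterial counterpart takes part in the accuracy of decoding, ran from 8.58 (median 8.99) to 9.58 in wt and from 9.07 (median 9.33) to 9.52 in cre. All 10 cre mice lay above the wt mean of Mrps5, and the difference was 0.27 (SE 0.11; adjusted p = 0.770). In both genes the larger difference was that of batch 1, 0.59 against 0.15 for Mrps22 and 0.42 against 0.13 for Mrps5.

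The next members in order of p were higher in cre by 0.33, namely Mrpl16 (SE 0.17) and Mrpl3 (SE 0.17), both large-subunit proteins conserved in bacteria. On the lower side stood Mrpl54 (-0.28, SE 0.15), Mrpl52 (-0.39, SE 0.22), Mrpl34 (-0.35, SE 0.20), Mrps17 (-0.23, SE 0.14) and Mrpl4 (-0.27, SE 0.16). The first 2 of these are specific to the mitochondrial large subunit. Mrpl4 is the counterpart of a bacterial protein that lines the peptide exit tunnel. The adjusted p of these 7 members lay between 0.801 and 0.818.

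By role, the most uneven count was that of the small-subunit proteins specific to mitochondria. Of these 9 genes, 8 were higher in cre and 1 lower, with a median difference of 0.15, and their mean in the wt mice (8.95 ± 0.17, SD, n = 10) lay 0.19 (SE 0.10) under that in the cre mice (9.13 ± 0.26, SD, n = 10). This difference was that of batch 1, where the class mean was 0.44 higher in cre and all 9 genes were higher. In batch 2 the class mean differed by -0.07, with 3 genes higher and 6 lower. Of the 14 small-subunit proteins with bacterial homologues 5 were higher and 9 lower (median -0.08). Large-subunit proteins were evenly split, with 16 higher and 14 lower among the 30 conserved ones and 9 higher and 10 lower among the 19 specific ones. The difference between classes was not tested.

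The genotypes differed in opposite directions in the 2 batches. In batch 1 the member mean of the wt mice was 8.852, 8.966, 8.968, 9.031 and 9.130, and that of the cre mice 8.991, 9.149, 9.242, 9.245 and 9.440. In batch 2 the wt mice were at 8.992, 9.003, 9.021, 9.088 and 9.221, and the cre mice at 8.565, 8.908, 8.909, 8.970 and 8.996. Thus 4 of 5 cre mice lay above every wt mouse in batch 1, and 4 of 5 lay below every wt mouse in batch 2. The difference of the means was 0.22 (SE 0.09) in batch 1 and -0.20 (SE 0.09) in batch 2. The plot of levels by genotype and batch shows this crossing for the mean and for Mrpl35, Mrpl37 and Mrps10, and its absence for Mrps31.

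The crossing ran through most members. In batch 1, 61 of 73 were higher in cre (median difference 0.24), and in batch 2, 61 of 73 were lower (median -0.17). Over all probe sets 11049 of 22206 were higher in batch 1 and 11742 in batch 2. Both at once, higher in batch 1 and lower in batch 2, held for 52 members (71.2%), against a background of 23.8% of probe sets. The members share the same 20 mice and vary together, so the 73 are not independent observations.

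**Figure D1:**
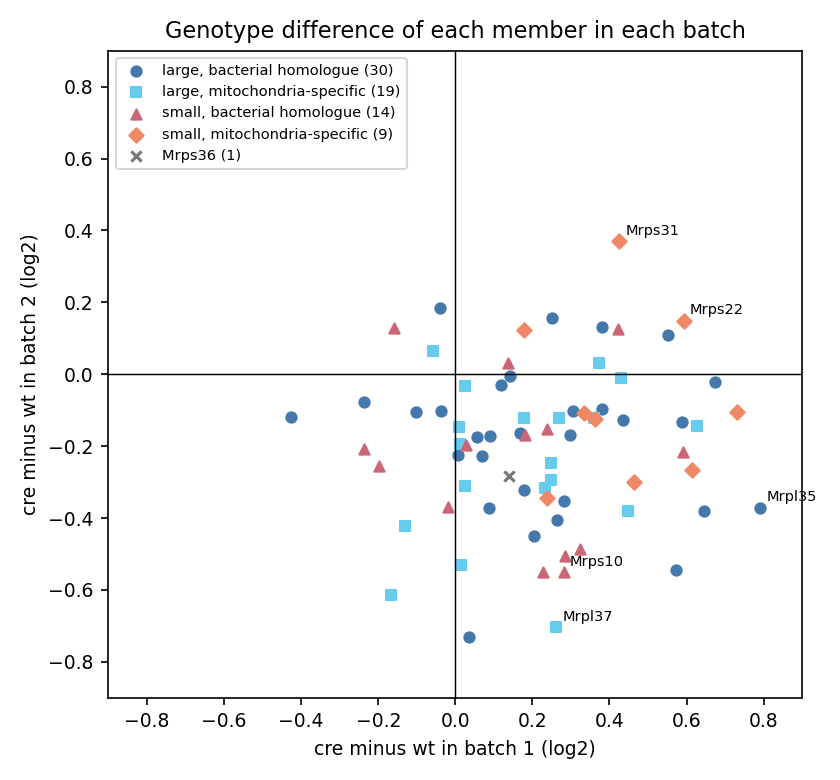
Difference between genotypes (cre minus wt, log2) of each member in batch 1 (horizontal axis) and in batch 2 (vertical axis), 1 point per gene, coloured and shaped by its role in the ribosome. Of the 73 points 52 lie to the lower right of the 0 lines, higher in cre in batch 1 and lower in batch 2.

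The change of the genotype difference between batches, the interaction term of the limma fit, was negative for 67 of 73 members with a median of -0.44, against 0.03 over all probe sets. No member passed an adjusted p of 0.05 for it, and 0% of all probe sets did in either direction. At an unadjusted p under 0.05, 16 members were negative and 0 positive, where the shares of all probe sets were 4.27% and 3.14%. Counts by role were 7 of 30 and 2 of 19 in the large subunit, conserved and specific, and 5 of 14 and 2 of 9 in the small subunit. The count of 16 was 7 without cre replicate 4, 8 without wt replicate 8 and 9 without cre replicate 7. The shares of all probe sets with a negative interaction at this p were then 3.37%, 3.51% and 3.36%. Without the 6 mice that stood apart the count was 21 (4.89% of all probe sets). It was 5 (2.51%) without both cre replicates 4 and 7, the lowest and highest mice of the member mean. The last 2 settings were chosen after these values had been seen.

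Mrpl35, a large-subunit protein conserved in bacteria, had the most negative interaction, -1.16 (SE 0.29; unadjusted p = 0.000746, adjusted p = 0.654). In batch 1 it stood at 8.41, 8.68, 8.72, 8.98 and 9.03 in wt and at 8.92, 9.22, 9.81, 9.82 and 10.00 in cre. In batch 2 it stood at 8.95, 9.03, 9.19, 9.23 and 9.44 in wt and at 8.44, 8.60, 8.75, 9.02 and 9.17 in cre. The ranges overlapped in both batches, with 4 cre mice above all wt mice in batch 1 and 3 below all of them in batch 2.

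Mrpl37, specific to the mitochondrial large subunit, had an interaction of -0.96 (SE 0.29; adjusted p = 0.654). In wt it averaged 8.61 ± 0.18 in batch 1 and 9.10 ± 0.46 in batch 2, and in cre 8.87 ± 0.34 and 8.40 ± 0.20 (SD, n = 5 each). Mrps10, the counterpart of a bacterial small-subunit protein, had an interaction of -0.83 (SE 0.26; adjusted p = 0.654). In batch 2 all 5 of its cre levels (8.31, 8.31, 8.53, 8.64 and 8.81) lay below all 5 wt levels (8.84, 8.84, 8.95, 8.99 and 9.34). In batch 1 the Mrps10 ranges of 8.31 to 8.84 in wt and 8.31 to 9.30 in cre overlapped.

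Groups that did not overlap within a batch were few. In batch 1 the cre mice lay wholly above the wt mice for Mrpl16, Mrpl55 and Mrps5, 3 of 73 members where 0.707% of all probe sets did so, and wholly below them for none, against 0.581%. In batch 2 they lay wholly below for Mrps10 alone (background 0.387%) and wholly above for none (0.329%). Mrpl16 in batch 1 reached 7.14 to 7.58 in wt and 7.62 to 8.69 in cre. Mrpl55, named here because its groups did not overlap, averaged 8.57 ± 0.22 in the wt and 9.16 ± 0.38 in the cre mice of batch 1 (SD, n = 5 each), and 8.83 and 8.70 in those of batch 2.

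Cytosolic ribosomal protein genes, whose products form the ribosome outside the mitochondrion, crossed less evenly but had a similar interaction. Of 57 measured, 38 were higher in cre in batch 1 (median 0.08) and 54 lower in batch 2 (median -0.46). Their interaction was negative for 55 of 57, with a median of -0.56, against 67 of 73 members with a median of -0.44. At an unadjusted p under 0.05, 13 of 57 (22.8%) were negative, against 16 of 73 members (21.9%), so the interaction was not particular to the members. The macrophage list moved as well: 15 of its 16 genes were lower in cre in batch 1 and 9 of 16 in batch 2, the list mean differing by -0.66 and -0.07. That mean ran from 12.01 to 13.69 in wt and 10.67 to 12.91 in cre in batch 1. In batch 2 it ran from 11.89 to 13.33 in wt and 11.97 to 12.97 in cre. The medians ran the other way, 12.29 in wt and 12.80 in cre in batch 1, and 12.46 and 12.49 in batch 2. Cre replicates 7 (11.04) and 9 (10.67) were the lowest mice of batch 1. For 12 adipocyte genes the list mean was higher in cre by 0.21 in batch 1 and by 0.40 in batch 2. Wt replicate 5 (15.10) was the lowest mouse of this list mean in batch 1 and wt replicate 6 (14.46) in batch 2. Its medians in wt and cre were 16.67 and 16.50 in batch 1, and 16.40 and 16.43 in batch 2. The part of these lists in the members' crossing was not tested.

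Between batches alone, 64 of 73 members were lower in batch 2 than in batch 1, with a median of -0.12. The direction was not shared by the genotypes: the member mean averaged 8.99 in batch 1 and 9.07 in batch 2 in wt, and 9.21 and 8.87 in cre. No member passed an adjusted p of 0.05, and 0% of probe sets did. At an unadjusted p under 0.05, 4 members were lower and 0 higher, where the shares of all probe sets were 0.419% and 0.153%. The 3 with the smallest p were Mrpl42 (-0.44, SE 0.18), Mrpl46 (-0.29, SE 0.12) and Mrpl27 (-0.37, SE 0.15), each with an adjusted p of 1.00, and Mrpl24 was the fourth. Mrpl27 is the counterpart of a bacterial protein beside the peptidyl transferase centre. Only 0.572% of all probe sets reached an unadjusted p under 0.05 for batch in either direction, and whether the authors adjusted the deposited values for batch is not given in the sources used here.

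Across mice the members varied together, but loosely. After the means of the 4 groups of genotype and batch were removed, the mean Pearson correlation between pairs of members over 20 mice was 0.15, against 0.00 over pairs of all probe sets and 0.52 within the cytosolic ribosomal protein genes. The correlation of a member with the mean of the other 72 had a median of 0.40, and exceeded 0.5 for 25 members. It was highest for Mrpl27 (0.89) and Mrpl30 (0.81), both large-subunit proteins conserved in bacteria. It was below 0 for 3 members, lowest for Mrps2 (-0.33). The member mean and the mean of the cytosolic ribosomal protein genes had a correlation of 0.30, with all genes of a mouse read on the same array.

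**Figure D2:**
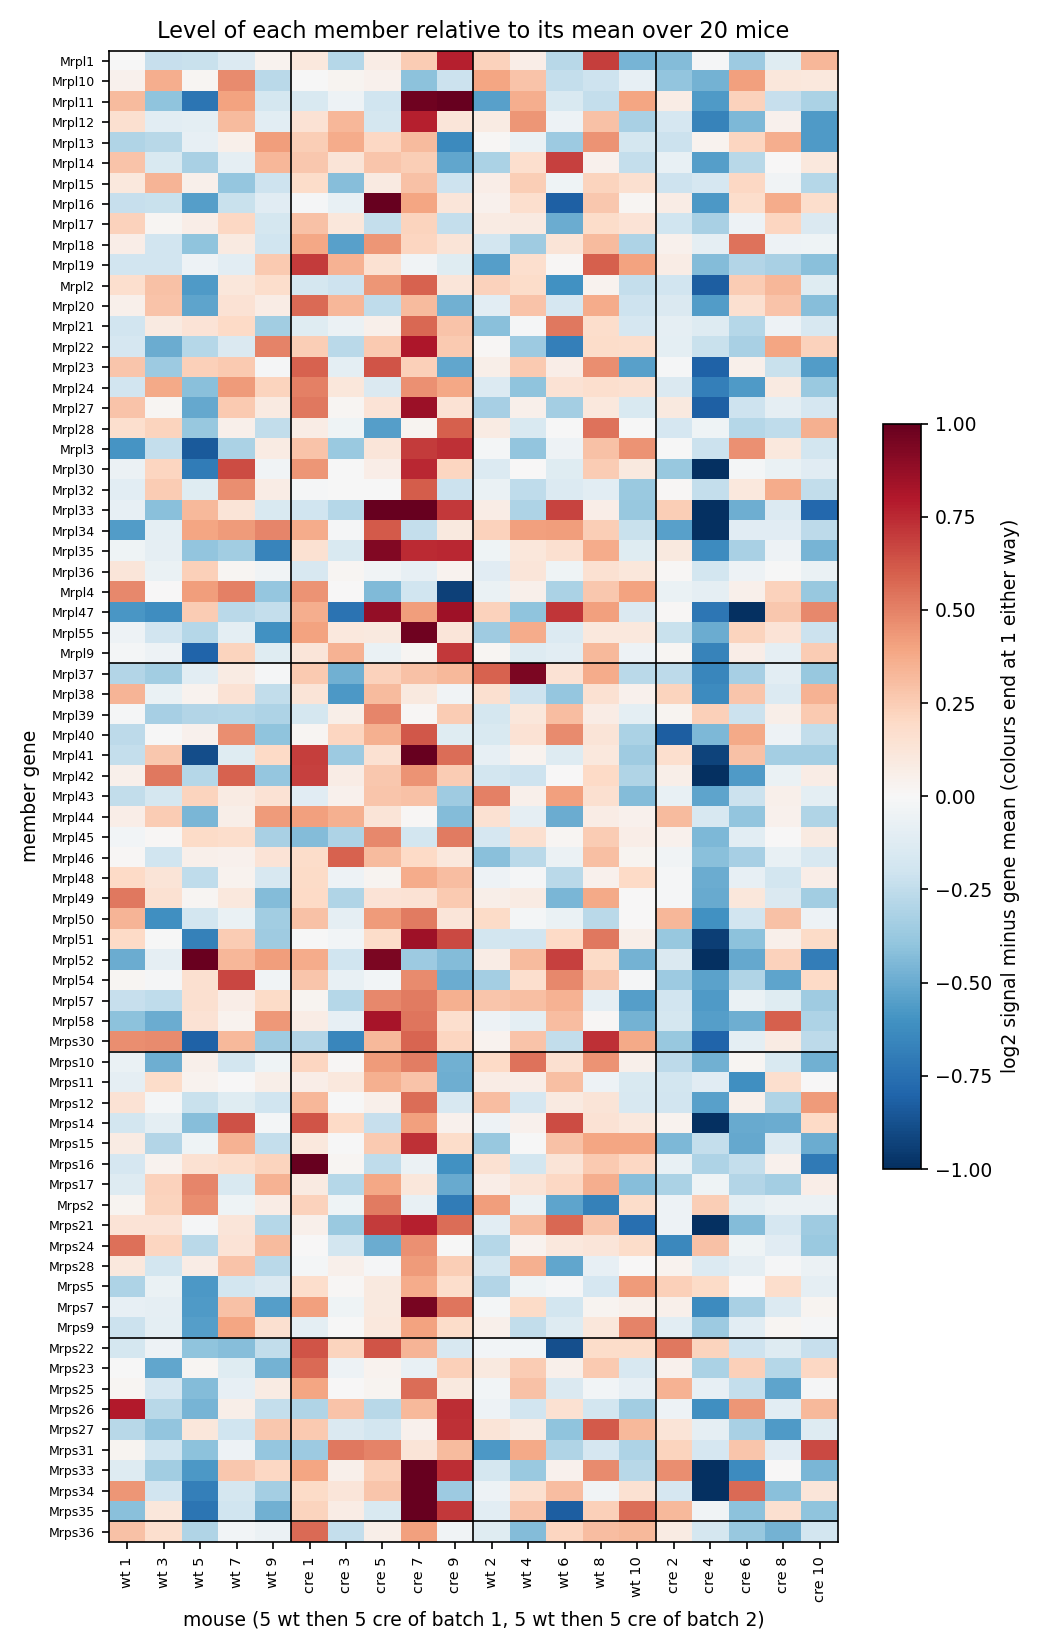
Level of each of the 73 members (rows) in each of the 20 mice (columns) minus the mean of that gene over all mice, in log2 units, with colours ending at 1 in either direction; black lines separate the groups of mice and the role classes, from the top large subunit conserved, large subunit specific, small subunit conserved, small subunit specific and Mrps36. Cre replicate 7 is red for most members and cre replicate 4 blue.

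Within batches the SD of the member mean was 0.10 in wt and 0.17 in cre, and 50 of 73 members (68.5%) had a larger SD in cre than in wt, against 49.6% of all probe sets. Both extremes of the member mean were cre mice, replicate 4 at 8.57 and replicate 7 at 9.44. Without these 2 mice, a choice made after their values were seen, the SD in the other 8 cre mice was 0.09, and 39 of 73 members (53.4%) had a larger SD in cre, against 49.4% of all probe sets. Leaving out the lowest and highest mice of the cre group alone lowers its SD by construction. The comparison therefore cannot decide whether the spread differs between the genotypes.

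The genes whose levels were most like the member mean were ranked by Pearson correlation over 20 mice with group means removed. The 10 highest among genes that are no members were Ndufb6 (0.89) and Ndufb4b (0.88), both subunits of complex I, Mtch1 (0.85), of the outer mitochondrial membrane, Gtf2h5 (0.84), of transcription factor TFIIH, Cox6b1 (0.82), of cytochrome c oxidase, Uqcc2 (0.82), an assembly factor of complex III, the malate dehydrogenase Mdh1 (0.81), Sap18b (0.81), Uqcr10 (0.81), of complex III, and Tufm (0.80), the mitochondrial elongation factor Tu. Without wt replicates 5 and 6 the correlations of these 10 genes lay between 0.80 and 0.89.

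Adipoq, the gene of the adipocyte hormone adiponectin, and Adgre1, which encodes a surface protein of mouse macrophages, were used as markers of adipocytes and macrophages. Because wt replicates 5 and 6 formed a separate low group in Adipoq, its correlation with the member mean is given first over the other 18 mice, where Pearson's r was 0.48 and Spearman's rho 0.42, and it was 0.38 and 0.45 over all 20. It was 0.48 and 0.36 without the 2 of these mice farthest from the median of Adipoq. Within batches, again without wt replicates 5 and 6, Pearson's r was 0.70 in batch 1 and 0.32 in batch 2 over 9 mice each (rho 0.67 and 0.02). With all 10 mice of a batch r was 0.76 in batch 1 and 0.03 in batch 2 (rho 0.76 and -0.13). Leaving cre replicates 7 and 9 out of the 20 gave r = 0.26 and rho = 0.31. With Adgre1 the member mean had r = -0.57 and rho = -0.46 over 20 mice, and -0.53 and -0.37 without wt replicates 5 and 6. Within batches this r was -0.57 and -0.51, and within wt and cre -0.47 and -0.64, the wt value becoming -0.17 over 8 mice without replicates 5 and 6. Without cre replicates 7 and 9, the mice farthest from the median of Adgre1, r was -0.41 and rho -0.33. These are descriptions of a score over chosen genes and carry no test. The 2 markers are related to each other (r = -0.69 over the 18 mice), so their relations with the members are not separate observations.

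**Figure D3:**
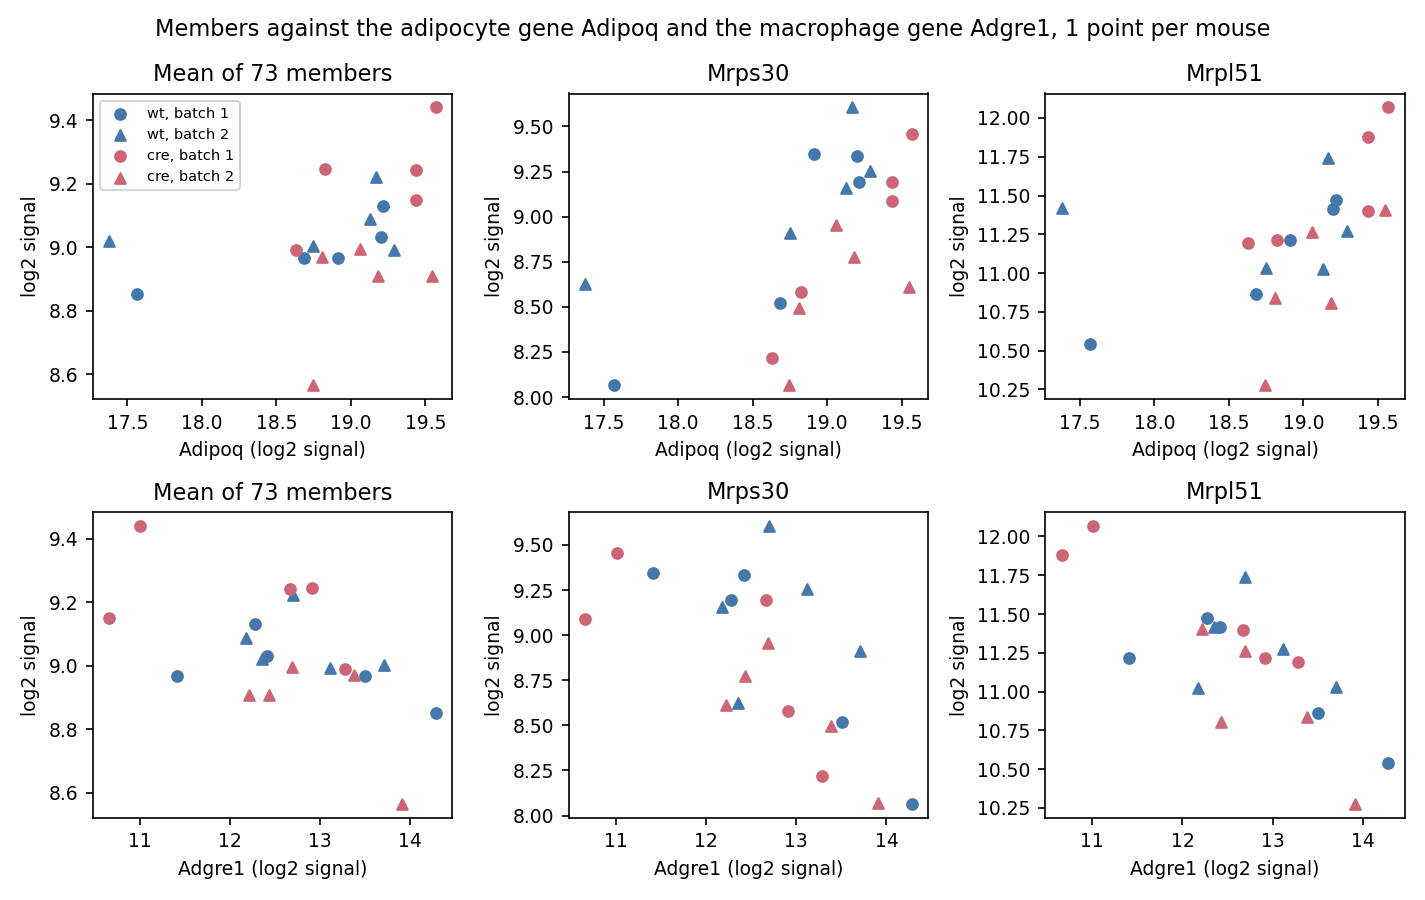
Log2 signal of the member mean, Mrps30 and Mrpl51 (vertical axes) against Adipoq (top row) and Adgre1 (bottom row), 1 point per mouse, coloured by genotype and shaped by batch; axes do not start at 0. Wt replicates 5 and 6 lie apart at the left of the top row, with Adipoq at 17.57 and 17.38, and the 2 cre mice at the left of the bottom row are replicates 7 and 9.

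Each member was then fitted on Adipoq with genotype and batch as covariates. The slope, the log2 change of a member per log2 unit of Adipoq, was positive for 56 and negative for 17 members, with a median of 0.13 against 0.02 over the other 22205 probe sets. This median rested on single mice: it was 0.23 without wt replicate 6, 0.08 without wt replicate 5, and 0.33, with 61 positive and 12 negative slopes, without both. An adjusted p under 0.05 was reached by 3 members, all with positive slopes, and by 3.83% of probe sets with a positive slope and 2.26% with a negative one. The 3 of 73 are therefore near the background. They are all large-subunit proteins, Mrps30, Mrpl2 and Mrpl16.

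Mrps30 rose by 0.64 per unit of Adipoq (SE 0.13; adjusted p = 0.00421, limma), and by 1.00 (SE 0.23) without wt replicates 5 and 6. Its lowest level in wt, 8.06, was that of wt replicate 5, and its lowest in cre, 8.07, that of replicate 4, while the highest levels were 9.61 in wt replicate 8 and 9.46 in cre replicate 7 (medians 9.18 and 8.69). Mrpl2, the counterpart of a bacterial protein near the peptidyl transferase centre, rose by 0.45 (SE 0.13; adjusted p = 0.0367). It ran from 8.91 (median 9.65) to 9.80 in wt and from 8.68 (median 9.51) to 10.10 in cre, so the genotypes overlapped. Mrpl16 rose by 0.46 (SE 0.13; adjusted p = 0.0377) and ran from 6.87 in wt replicate 6 to 8.69 in cre replicate 5.

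Only Mrps30 kept its call whichever of the 20 mice was left out. Mrpl2 lost it without wt replicate 4, 5 or 6 or cre replicate 1, 3 or 7, and Mrpl16 without any of these or wt replicate 8 or 10. The count of 3 became 1 without wt replicate 4, wt replicate 5, cre replicate 1, cre replicate 3 or cre replicate 7, and 5 without wt replicate 6. Without wt replicates 5 and 6 together it was 2, Mrps30 and Mrpl51. It was also 2, the same genes, without the 6 mice that stood apart, 1 (Mrps30) in batch 1 alone, and 0 in batch 2, wt or cre alone or with Adipoq and Adgre1 in the same fit. The share of all probe sets that passed with a positive slope moved as well. It was between 3.22% and 3.67% without wt replicate 4, 5 or 6 or cre replicate 1, 3 or 7, 1.54% without wt replicates 5 and 6, 1.27% without the 6 mice that stood apart, 1.44% in batch 1, 2.31% in batch 2, 2.60% in wt, 0.018% in cre and 2.86% with both markers.

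Of the other members with the smallest p in each direction, Mrpl30 (0.40, SE 0.15) and Mrps35 (0.45, SE 0.17) had positive slopes that did not pass (adjusted p = 0.130 and 0.134). The slope of Mrpl30 ran from 0.25 without wt replicate 5 to 0.65 without wt replicate 6, where it passed. The negative slopes of Mrpl52 (-0.40, SE 0.20), Mrps16 (-0.19, SE 0.16), Mrpl43 (-0.15, SE 0.13), Mrps17 (-0.13, SE 0.13) and Mrps11 (-0.09, SE 0.12) did not pass either, with adjusted p from 0.286 to 0.769. All 9 mitochondria-specific small-subunit genes had positive slopes, from 0.01 to 0.45, and none of these 9 passed. For the cytosolic ribosomal protein genes the sign was mostly the other way, with 49 of 57 slopes negative, a median of -0.22 and 0 called.

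On Adgre1, fitted in the same way, 58 members had negative and 15 positive slopes, with a median of -0.10 against -0.02 over the other probe sets. The 6 that passed an adjusted p of 0.05 were all negative, where 2.57% of probe sets passed with a negative slope and 6.26% with a positive one. These 6 of 73 are a larger share than the 2.57%, and the difference was not tested. They were Mrpl51, Mrps30, Mrpl11, Mrpl30, Mrps7 and Mrpl41, of which Mrps7 alone belongs to the small subunit.

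Mrpl51, specific to the mitochondrial large subunit, fell by 0.36 per log2 unit of Adgre1 (SE 0.08; adjusted p = 0.00591, limma). It ran from 10.54 in wt replicate 5 (median 11.24) to 11.74 in wt replicate 8, and from 10.28 in cre replicate 4 (median 11.24) to 12.07 in cre replicate 7. The mice with the lowest Mrpl51, wt replicate 5 and cre replicate 4, were those with the highest Adgre1 of their genotype, 14.28 and 13.91. Mrps30 fell by 0.37 (SE 0.09; adjusted p = 0.00736).

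Mrpl11, which in bacteria forms the base of the ribosomal stalk, fell by 0.35 (SE 0.09; adjusted p = 0.0199), from 10.71 and 10.67 in cre replicates 9 and 7, the mice lowest in Adgre1, to 8.97 in wt replicate 5. Mrpl30, with a slope of -0.28 (SE 0.08; adjusted p = 0.0346), ran from 9.92 to 11.27 in wt and 9.54 to 11.37 in cre. Mrps7, the counterpart of a bacterial protein that organises the head of the small subunit, fell by 0.27 (SE 0.08; adjusted p = 0.0350) and ran from 9.19 to 10.04 in wt and 9.13 to 10.70 in cre. Mrpl41, the last of the 6 by p and named after its values were seen, fell by 0.33 (SE 0.10; adjusted p = 0.0386). All of these ranges overlapped between the genotypes, as the slopes run across mice within each.

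Only Mrpl51 kept its call for Adgre1 whichever mouse was left out, and Mrps30 lost it only without wt replicate 5. For Mrpl11 the mice whose removal ended the call were wt replicate 5 and cre replicates 7 and 9, and for Mrpl30 they were wt replicate 5 and cre replicates 4 and 7. Mrps7 and Mrpl41 lost it without 7 and 6 single mice. Without wt replicate 5 the count was 1, without cre replicate 7 it was 2 and without cre replicate 4 it was 3. It was 2, Mrpl51 and Mrps30, without wt replicates 5 and 6 and also without the 6 mice that stood apart, 3 in batch 1 alone, and 0 in batch 2, wt or cre alone. Quantile normalisation of the deposited values gave 10. With both markers in 1 fit 2 members passed for Adgre1, Mrpl51 and Mrps21. Of all probe sets, 0.865% passed with a negative slope without wt replicate 5, 1.55% without cre replicate 7, 2.03% without cre replicate 4, 2.45% without wt replicates 5 and 6, 1.76% without the 6 mice that stood apart and 2.90% in batch 1. In batch 2 alone 0% passed in either direction, in wt alone 0.018% and in cre alone 1.25%, so the counts of 0 there say little about the members. The share was 3.32% after quantile normalisation and 2.35% with both markers.

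Of the positive slopes on Adgre1, that of Mrps2 was 0.23 (SE 0.08; adjusted p = 0.0780), and those of Mrpl13 (0.14, SE 0.09), Mrps16 (0.15, SE 0.10), Mrpl4 (0.14, SE 0.09) and Mrpl44 (0.09, SE 0.08) were smaller relative to their error. None of the 5 passed. Mrps2 is also the member that ran most against the mean of the others.

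The rest of the machinery of mitochondrial translation was read from lists of known genes, since a ribosome needs assembly factors, translation factors and charged tRNAs. No gene of these lists passed for genotype. Among 8 ribosomal proteins with other names, Dap3, a GTP-binding protein of the small subunit, was higher in cre by 0.48 (SE 0.17; adjusted p = 0.770) and rose with Adipoq by 0.50 (SE 0.12; adjusted p = 0.0123), the only 1 of the 8 to do so. Mrps18a was lower in cre by 0.42 on the log2 scale (SE 0.27), and Ptcd3 had a slope on Adipoq of 0.39 (SE 0.16; adjusted p = 0.177). All 8 had negative interactions, with a median of -0.45, and none passed.

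Of 25 assembly factors 12 were higher in cre and 13 lower. The GTPase Mtg1 alone passed for Adipoq, with a slope of 0.81 (SE 0.17; adjusted p = 0.00431). Trub2, a pseudouridine synthase, was higher in cre by 0.43 (SE 0.16), the RNA methyltransferase Mrm1 was higher by 0.25 (SE 0.15), and Mrm3 had a slope on Adipoq of 0.30 (SE 0.13), none of which passed. The 15 translation factors had 10 genes higher in cre, among them the initiation factors Mtif2 and Mtif3, each by 0.37 (SE 0.16 and 0.17). Both differences were those of batch 1, 0.72 against 0.03 in batch 2 for Mtif2 and 0.77 against -0.03 for Mtif3. Of the 15 factors, 14 were higher in cre in batch 1 and 6 in batch 2. The ribosome recycling factor Mrrf (0.57, SE 0.12; adjusted p = 0.00413) and the elongation factor Gfm1 (0.43, SE 0.12; adjusted p = 0.0294) rose with Adipoq. In this list 14 of 15 interactions were negative, with a median of -0.39.

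Mitochondrial tRNA synthetases were higher in cre for 14 of 18 genes, with a median of 0.06, led by Iars2 (0.43, SE 0.15) and Nars2 (0.36, SE 0.13), whose adjusted p was 0.770. Iars2 rose with Adipoq by 0.42 (SE 0.12; adjusted p = 0.0403), and Cars2 had a slope of -0.29 (SE 0.14; adjusted p = 0.256). Of 9 genes that copy, transcribe or package mitochondrial DNA, Tfam was lower in cre by 0.31 on the log2 scale (SE 0.15) and Tefm higher by 0.26 (SE 0.15), and the slopes on Adipoq of Tefm (0.27) and Polg2 (-0.22) did not pass. Of 11 regulators of mitochondrial biogenesis, Ppargc1a, the coactivator PGC-1α, was higher in cre by 0.67 (SE 0.26; adjusted p = 0.770) and Gabpb2 by 0.31 (SE 0.13). Myc fell by 0.94 per unit of Adipoq (SE 0.14; adjusted p = 0.000216), and the slope of Ppargc1a was 0.49 (SE 0.23; adjusted p = 0.243). On Adgre1 the genes of these lists that passed were Mtg1 (-0.42), the mitochondrial transcription factor Tfb2m (-0.35), Nrf1 (0.33) and Myc (0.40), of which Tfb2m and Nrf1 are named after their values were seen. Of all probe sets, 6.26% passed on Adgre1 with a positive slope and 2.57% with a negative one, and on Adipoq 3.83% and 2.26%. At most 2 genes of a list passed for either marker, so these calls are not read as results about the lists. The median interaction was -0.12 for assembly factors, -0.08 for tRNA synthetases, -0.23 for mitochondrial DNA expression and 0.03 for the regulators.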

How the data were processed

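Total RNA of 20 fat pads was labelled with biotin from a whole-transcript amplification and hybridised to 1 array per mouse, per the labels' protocols. The deposited values are log2 signals, 1 per probe set, made by RMA in Transcriptome Analysis Console 4.0.2.15 with build mm10, per the submitters' processing notes. RMA by its usual design brings all arrays to 1 distribution, so a shift of all genes could not be seen. Of 22206 probe sets 19572 have 1 gene symbol in the platform annotation and 2634 are unnamed. No filter was applied.

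Differences were computed with limma 3.58.1 (R 4.3.3, lmFit and eBayes) over all probe sets, with genotype and batch in 1 additive fit, their interaction in another, and Adipoq or Adgre1 added as a covariate, and p-values were adjusted by Benjamini-Hochberg over the whole table. Tests are two-sided. Mice are separate animals. Summary, figures and motif searches used Python 3.11.15. The fits were tested on simulated data. In 10 simulations with 200 changed genes each, the genotype fit recovered 28.7% of log2 changes of 0.585 and 78.0% of changes of 1. Of its calls 4.39% were false. Changes of 0.585 were thus mostly missed. The simulated noise was independent between probe sets, whereas the members vary together.

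The members and gene lists were chosen with earlier results of these data known. Named members are, by rule, the 5 with the smallest p in each direction for genotype and for each slope, the 3 smallest for interaction and batch, and of each other list the 2 smallest for genotype and for the slope on Adipoq. The 10 genes most like the member mean are named as well, with Adipoq, Adgre1 and Tnf. Promoters to print, the motif shares among genes on the array and the correlations without wt replicates 5 and 6 within batches were chosen after values were seen. Alternatives were other scalings, variance priors, array weights and filters, subsets of mice, a replicate block and list means as covariates. Mitochondrially encoded genes, Mrpl53 and Mrps6 were not analysed here.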

Additional observations from a re-analysis of the deposited data

Results flagged for a closer look

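In 66 groups of 10 mice formed by the member mean, the named members, Adipoq, Adgre1 and Tnf in each genotype, the gap between the extreme mouse and its nearest neighbour was set against the range of the group. It exceeded Dixon's critical value in 2 groups, and chance alone flags about 1 group in 20. Mrps16, a conserved small-subunit protein, stood at 8.50 in cre replicate 1, where the other 9 cre mice lay between 6.58 and 7.33. Mrps2, another conserved small-subunit protein, stood at 8.21 in cre replicate 9, where the others lay between 8.81 and 9.43.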

How the results depend on the processing

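No member passed for genotype, batch or interaction under any alternative run for each. For the slope on Adipoq the 3 members called became 1 in batch 1 alone, 1 with the replicate block and 0 in batch 2 alone, wt alone, cre alone or with both markers together, and 1 to 5 with single mice left out. For the slope on Adgre1 the 6 became 10 after quantile normalisation and 3 in batch 1 alone. The 6 became 2 without wt replicates 5 and 6, with the replicate block, without the mice that stood apart or with both markers together. They became 0 in batch 2 alone, wt alone or cre alone, and 1 to 9 with single mice left out. With the replicate block, 1.79% of all probe sets passed with a positive slope on Adipoq and 0.599% with a negative slope on Adgre1. The 16 negative interactions at an unadjusted p under 0.05 became 5 without cre replicates 4 and 7 and 7 to 19 with single mice left out. The alternatives for the interaction that centre arrays on their medians (22), leave out the mice that stood apart (21) or leave out cre replicates 4 and 7 were chosen after seeing the data. The difference of the member mean, 0.01 in both batches together and also with the replicate block, was 0.22 in batch 1 and -0.20 in batch 2. Genotype differences that changed sign were Mrpl3 (-0.0227) and Mtif3 (-0.0313) in batch 2 alone, Mrpl34 (0.0369) in batch 1 alone and Mrps18a (0.0017) without the mice that stood apart. Slopes on Adipoq that changed sign were Mrps11 (0.0673) without the mice that stood apart, Polg2 (0.0103) without wt replicates 5 and 6, and, in cre alone, Mrpl43 (0.20), Mrps11 (0.00971), Mrps17 (0.21) and Polg2 (0.13). The slope of Mrpl44 on Adgre1 changed sign without the mice that stood apart (-0.0402) and in wt alone (-0.0538). None of these reversed values had passed a test, and their cause was not tested. Averaging probe sets of a gene could not change a value, since each member has 1. The replicate block is given because the mice are numbered alike in both genotypes, and the labels do not say whether the numbers pair them. Same-numbered mice correlated between -0.30 and 0.34, with 4 of 10 pairs over 0.1 and 4 of 10 mice closest to their own number. So few mice cannot decide whether they were paired. Precision is limited by 10 mice per genotype.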
